A study of Mus musculus with 9 samples.

Results

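Mouse adult fibroblasts (MAFs) exposed to DPI for 72 hours were compared with control MAFs, using 3 RNA libraries of each. DPI is taken here to be diphenyleneiodonium, an inhibitor of enzymes that carry a flavin cofactor, because the series concerns flavin mononucleotide (FMN) and the assembly of respiratory complex I. The comparison used 6 of the 9 libraries of the series; the other 3 are MAFs after 24 hours of DPI, and they entered the model only to share its estimate of the spread. Every gene with enough counts was a member, which left 14088 of the 53465 genes in the deposited count table. The labels give the controls only as "Control", with no vehicle and no collection time, and they give no dose, mouse strain, passage or clone. Effects of DPI and of 72 hours in culture therefore cannot be told apart. Nothing in the labels states that the 3 libraries of a group are independent cultures; p-values are therefore relative to the spread of these libraries, and that spread may be purely technical.

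Flavins carry electrons in respiratory complex I, in the NADPH oxidases and in many other oxidoreductases, and DPI blocks such enzymes by reacting with the reduced flavin. Type I interferons bind the receptor IFNAR1/IFNAR2 and act through the kinases JAK1 and TYK2 on a complex that holds STAT2 and IRF9 and switches on antiviral genes; several of these genes encode parts of the same pathway, so the pathway feeds itself. The hypoxia-inducible factors (HIFs) are held low by oxygen-dependent prolyl hydroxylases, and when stable they raise glycolysis, angiogenic signals and collagen-modifying enzymes. Fibroblasts secrete and remodel the collagen matrix, and they clear it through the lysosome.

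Library totals ran from 15292736 to 17923656 counts over the 9 libraries, and over the 6 compared here. Of the fibroblast markers, Col1a1, Col1a2, Vim, Fn1 and Prrx1 were abundant in every library, while Dcn lay near 1 CPM (counts scaled to a common library total), and Thy1, Lum, Fap and Dpt were too low to test. Control 2 stood apart from the other controls. In it, 5.04% of counts came from ribosomal protein genes, where controls 1 and 3 had 3.74% and 3.78%, and the chi-square of its counts per degree of freedom against them was 31.3 and 26.6, where controls 1 and 3 gave 4.32 against each other. The difference followed gene length: relative to the mean of controls 1 and 3, the median log2 level in control 2 was 0.21 for the genes with the shortest total exon length (64 to 2374 bases) and -0.24 for those with the longest (6458 to 123179 bases), in 4 bins of equal size. Results were therefore read with and without control 2. Of the markers of other cells, Ptprc, Adgre1, Csf1r, Pecam1, Cdh5, Epcam, Cdh1 and Krt5 were below the test limit, while other members of their lists were detected. Summed levels of keratinocyte and epithelial markers were 189 to 218 CPM in the controls and 169 to 202 CPM at 72 h (8 of 16 tested), most of it Cdsn. Smooth muscle and pericyte markers summed to 119 to 160 CPM and 236 to 257 CPM (4 of 10 tested), most of it Cspg4. The sums were 97.3 to 119 CPM and 154 to 161 CPM for chondrocyte and bone markers, 71.5 to 79.1 CPM and 67.3 to 79.3 CPM for adipocyte markers, and 21.4 to 23.7 CPM and 30.3 to 31.7 CPM for endothelial markers. The part of such cells in the results was not tested.

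At 72 h, 1206 of the 14088 genes differed from control at an adjusted p under 0.05 (edgeR's quasi-likelihood test with Benjamini-Hochberg adjustment, 8.56%), 666 of them higher (4.73%) and 540 lower (3.83%). The falls were the larger changes. Of the genes with a log2 change of at least 1 in size, 84 rose and 141 fell, and of those with at least 2, 9 rose and 56 fell. All genes tested had a median log2 change of -0.01, against which the gene lists below may be read. Groups of 3 that did not overlap were more common than calls: all 3 treated libraries exceeded all 3 controls for 13.9% of genes and lay below them for 13.2%. Without control 2, the test called 1100 genes higher (7.63%) and 865 lower (6%), a total of 1965. Of the 666 genes called higher, 649 (97.4%) were also called without it, as were 504 of the 540 called lower (93.3%), and no gene called in both changed sign by edgeR. Leaving out 72 h library 1, 2 or 3 gave 782, 736 and 801 calls.

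**Figure D1:**
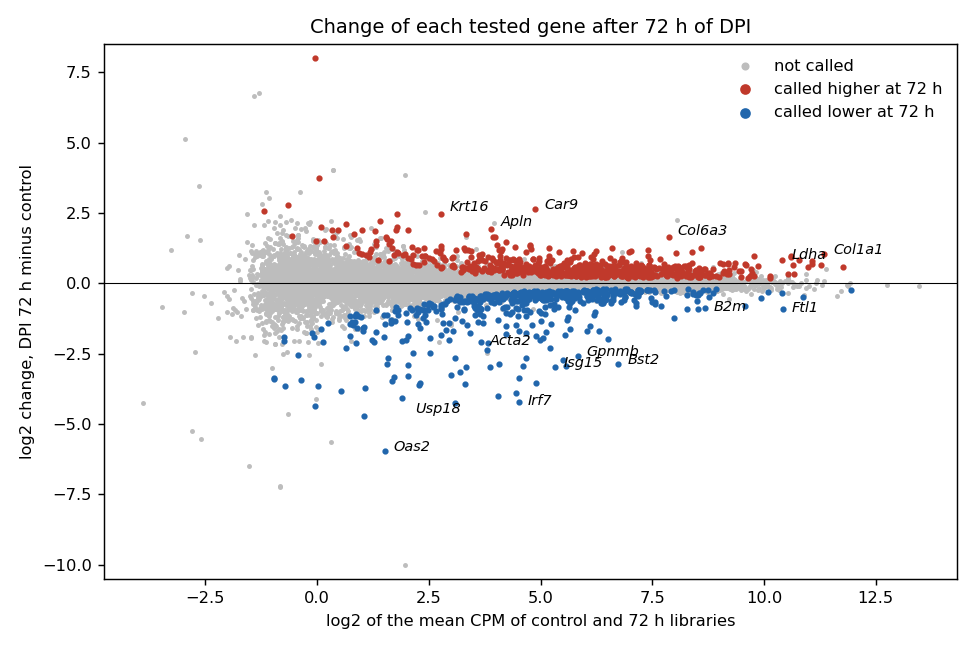
Log2 change at 72 h against control (vertical axis) by log2 mean CPM of the 6 libraries (horizontal axis), 1 point per gene tested, with the 666 genes called higher and the 540 called lower in colour. The named points show that interferon-stimulated genes such as Oas2, Usp18 and Irf7 lie at the bottom, Car9 and Krt16 near the top, and abundant genes such as Col1a1, Ldha, Ftl1 and B2m within about a log2 unit of 0.

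**Figure D2:**
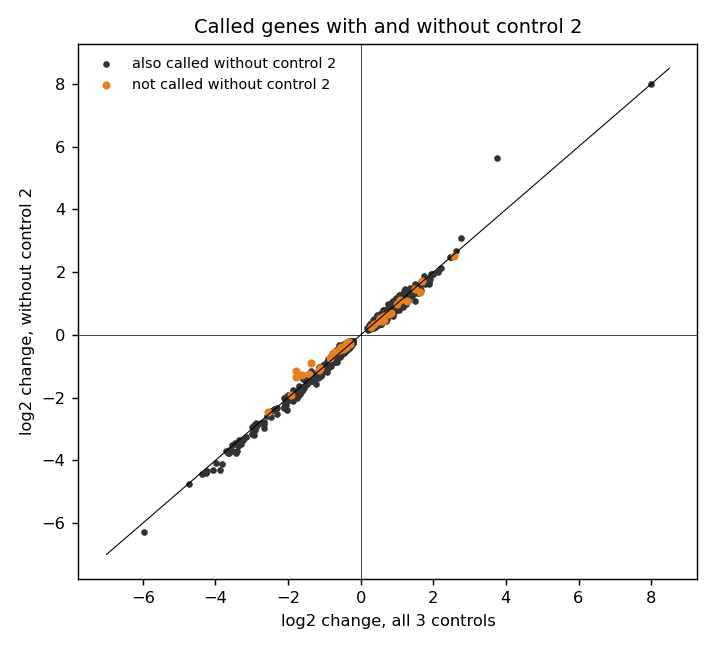
Log2 change with all 3 controls (horizontal axis) against the log2 change without control 2 (vertical axis) for the called genes, with the line of equal values. All points keep to the same side of 0 on both axes.

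Transcripts of many antiviral genes that type I interferon can induce fell, from signalling genes to effectors, while those of its receptors did not pass the test. Whether interferon set their level in these cells was not tested. Promoters of some of these genes are shown first, because they hold a short sequence that was more frequent among genes called lower than among all tested genes. The interferon-stimulated response element is the site bound by the complex of STAT2 and IRF9, and its core was searched as GAAA, any 2 bases and GAAA again, on both strands, in the 300 bases around each start site (250 before, 50 after) that RefSeq gives for GRCm38.p6. Such a window was found for 9840 of the 14088 tested genes, matched by symbol; they carry 9839 symbols, since 2 gene IDs share the symbol Aldoa, and shares below are of symbols. The stretches below are 150 bases from before the start site, 5′ to 3′ on the strand of the gene. Matches to the core on either strand are in capitals, and overlapping matches run together. Only the Isg15 stretch reaches the start site. First matches begin at -78 (Isg15), -156 (Ifit3), -130 (Bst2) and -139 (B2m) bases from it. The stretches are shown as examples of an effector that tags proteins, an RNA-binding effector, a tether of virions and the light chain of MHC class I.
Isg15 (chr4:156200819-156200968, minus strand): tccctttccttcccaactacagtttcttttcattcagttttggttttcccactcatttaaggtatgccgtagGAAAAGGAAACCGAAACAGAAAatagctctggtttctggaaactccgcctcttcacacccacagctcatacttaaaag
Ifit3 (chr19:34583320-34583469, plus strand): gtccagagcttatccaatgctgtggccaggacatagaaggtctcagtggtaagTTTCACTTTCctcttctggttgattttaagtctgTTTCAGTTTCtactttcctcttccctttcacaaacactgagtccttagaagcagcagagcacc
Bst2 (chr8:71537520-71537669, minus strand): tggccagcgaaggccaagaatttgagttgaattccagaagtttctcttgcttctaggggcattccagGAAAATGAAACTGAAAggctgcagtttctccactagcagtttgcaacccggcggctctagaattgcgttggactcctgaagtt
B2m (chr2:122147478-122147627, plus strand): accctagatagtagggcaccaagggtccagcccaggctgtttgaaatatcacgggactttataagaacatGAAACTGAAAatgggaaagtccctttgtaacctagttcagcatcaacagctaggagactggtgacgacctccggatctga
The Isg15 stretch holds 3 overlapping matches, Ifit3 holds 2 matches apart from each other, Bst2 holds 2 that overlap and B2m holds 1.

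The core was found in 357 of the 9839 tested symbols with a promoter window (3.63%) and in 1131 of all 32851 windows (3.44%). Among genes called higher the share was 3.27% (16 of 489), and among genes called lower it was 14.8% (61 of 411). It grew with the size of the fall: 37 of 98 called genes with a log2 change of -1 or below held it (37.8%), and 20 of 40 with a change of -2 or below (50%). By function, 8 of 9 interferon-inducible GTPases with a window held the core (88.9%), 15 of 35 effectors (42.9%), 3 of 7 sensors (42.9%), 5 of 15 genes of MHC class I presentation (33.3%), 3 of 14 receptors and signalling genes (21.4%) and 1 of 7 complement genes (14.3%). Outside the GTPases, most genes of each of these lists therefore had no match. A match is a string of letters and not a measured binding site, and base composition was not matched between the sets.

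The receptor layer comes first in the pathway. Ifnar1, a chain of the receptor, measured 95.1, 85 and 96.9 CPM in controls 1 to 3 and 92.9, 85.3 and 90.3 CPM in 72 h libraries 1 to 3. Its partner Ifnar2 measured 29.3, 37.2 and 28.7 CPM in the controls and 29, 26.4 and 29.2 CPM at 72 h. The groups overlapped for both chains, and neither passed the test (log2 change -0.04, SE 0.07, adjusted p = 0.77 for Ifnar1; -0.17, SE 0.10, adjusted p = 0.36 for Ifnar2). The receptor kinases Jak1 and Tyk2 also overlapped, with log2 changes of 0.14 (SE 0.08) and -0.09 (SE 0.12). Irf3, the factor that starts interferon transcription in response to viral RNA or DNA, had a log2 change of 0.02 (SE 0.09), and neither Ifnb1 nor Ifna4, which encode interferons, had enough counts to be tested.

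The transcription factors downstream of the receptor fell. Irf9, the part of the complex that recognises DNA, at chr14:55603571-55610030, measured 55.4, 45.6 and 51 CPM in the controls and 11, 11.5 and 15.2 CPM at 72 h, with every treated library below every control (log2 change -2.01, SE 0.15, adjusted p = 1.4e-05). Stat2 measured 47, 38.4 and 54.2 CPM and 18.8, 18.5 and 27.5 CPM; 72 h library 3 was the highest of its group and still under the lowest control (log2 change -1.10, SE 0.16, adjusted p = 0.0014).

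Irf7, at chr7:141262706-141266481, amplifies interferon production and is itself an interferon-stimulated gene. It measured 50.5, 37 and 42.9 CPM in the controls and 2.06, 2.29 and 2.58 CPM at 72 h. That is an 18.8-fold lower level with no overlap between groups (log2 change -4.23, SE 0.17, adjusted p = 2.1e-07), and the log2 change without control 2 was -4.33. Usp18, at chr6:121245906-121270917, removes ISG15 from proteins and holds back signalling at the receptor. Its level went from 18.8, 12.7 and 16.9 CPM to 0.668, 1.05 and 0.774 CPM, again without overlap (log2 change -4.27, SE 0.27, adjusted p = 4.8e-06). Irf1, a factor that also answers interferon gamma, fell by less (log2 change -0.47, SE 0.09, adjusted p = 0.0066). In all, 6 of the 16 receptor and signalling genes tested fell and the rest, including Ifngr1, Ifngr2, Socs1, Socs3 and Irf2, did not pass the test; the list's median log2 change was -0.12.

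Sensors of foreign nucleic acid split in a like manner. Those that recognise RNA and are themselves induced by interferon fell. Dhx58 encodes LGP2 and had a log2 change of -2.38 (SE 0.16), Ddx58 encodes RIG-I and had -1.71 (SE 0.13), and Ifih1 encodes MDA5 and had -1.32 (SE 0.15). Ddx58 measured 112, 81.4 and 111 CPM in the controls and 32.2, 29.2 and 31.7 CPM at 72 h. Controls and treated libraries did not overlap for any of these helicases. Tlr3 (log2 change -0.90, SE 0.18, adjusted p = 0.0084), Zbp1, a sensor of Z-form nucleic acid (log2 change -3.38, SE 0.73, adjusted p = 0.015), and Eif2ak2, the kinase PKR (log2 change -0.65, SE 0.15, adjusted p = 0.024), fell as well. The call of Zbp1 ended without 72 h library 2 (log2 change -3.75, adjusted p = 0.051), and that of Eif2ak2 without controls 1 or 3 or 72 h libraries 1, 2 or 3 (log2 change -0.70 to -0.52, adjusted p = 0.06 to 0.095). The adaptors Mavs and Tmem173 (STING) and the DNA sensor Cgas did not pass the test, with log2 changes of -0.11, -0.21 and -0.09. Altogether 6 of 11 sensors and adaptors fell, and their median log2 change was -0.80.

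**Figure D3:**
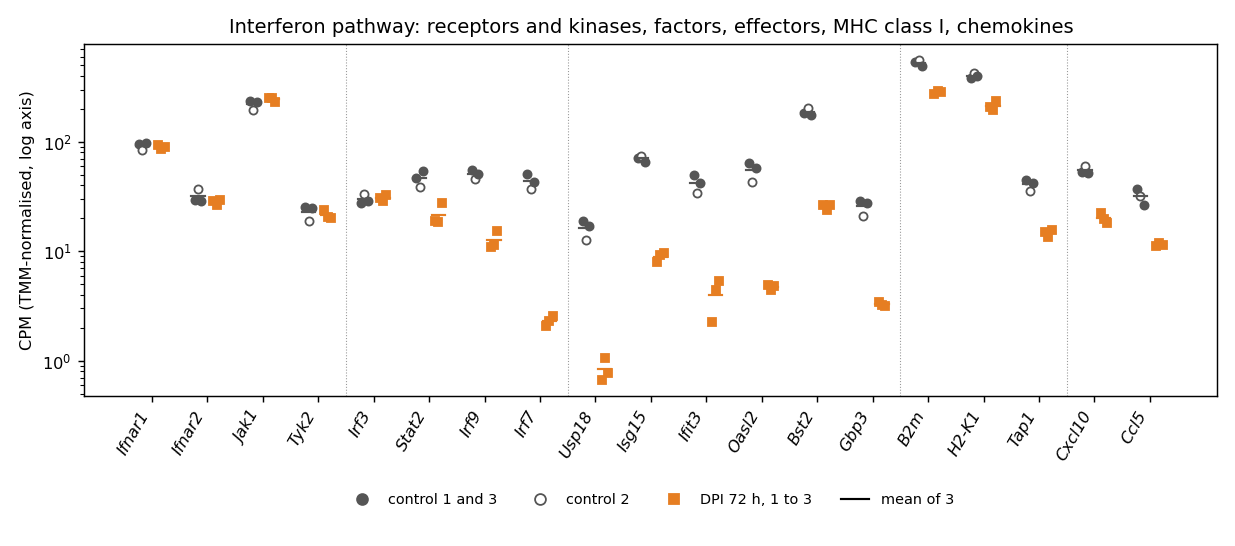
CPM on a log axis in each control library (grey, control 2 open) and each 72 h library (orange squares) for genes of the interferon pathway, ordered from receptors and kinases through transcription factors and effectors to antigen presentation and chemokines. Receptor and kinase genes overlap between the groups, whereas from Stat2 onward the 72 h squares lie below the controls.

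Antiviral effectors fell as a group. Of 44 tested, 38 fell (41 without control 2), and the median log2 change of the list was -2.20; Mx1, Ifitm1 and Slfn2 had too few counts to be tested. Isg15, a ubiquitin-like protein joined to viral and cellular proteins, lies at chr4:156199424-156200818 behind the promoter printed above. It measured 71.5, 74.8 and 66 CPM in the controls and 7.89, 9.2 and 9.68 CPM at 72 h, and the highest treated library was far under the lowest control (log2 change -2.99, SE 0.10, adjusted p = 6.3e-08). Bst2, or tetherin, holds budding virions at the cell surface; it measured 184, 203 and 178 CPM and 26.4, 23.8 and 26.5 CPM, with each group tight and the groups apart (log2 change -2.88, SE 0.10, adjusted p = 6.3e-08). Ifit3, part of a complex that binds viral RNA, went from 49.5, 34 and 41.9 CPM to 2.25, 4.45 and 5.35 CPM. Its treated libraries spread more than those of Isg15, and none reached a control (log2 change -3.38, SE 0.27, adjusted p = 2.3e-05).

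Oas2 makes the second messenger that activates RNase L. It measured 8.74, 2.81 and 5.37 CPM in the controls and 0, 0.247 and 0 CPM at 72 h, so that 2 of the treated libraries had no count. Its log2 change was the lowest among the named genes, and its SE was wide at this depth (log2 change -5.96, SE 0.75, adjusted p = 5.1e-04); it was -9.55 without 72 h library 2, which held its only counts. Oasl2, which promotes RIG-I signalling, fell from 63.6, 43 and 58.3 CPM to 4.92, 4.39 and 4.84 CPM without overlap (log2 change -3.54, SE 0.18, adjusted p = 1.3e-06). Ifi44 (log2 change -3.99, SE 0.20, adjusted p = 1.1e-06), Rsad2 or viperin, which makes a chain-terminating nucleotide (log2 change -2.66, SE 0.15, adjusted p = 2.0e-06), its neighbour Cmpk2, a nucleotide kinase (log2 change -3.17, SE 0.27, adjusted p = 3.6e-05), and Ifitm3, which blocks viral fusion in endosomes (log2 change -1.70, SE 0.09, adjusted p = 1.9e-06), also fell. Samhd1, which depletes nucleotides, and Slfn9 did not pass the test with all controls. Both were called lower without control 2 (log2 change -0.19, adjusted p = 0.011 for Samhd1, and -0.43, adjusted p = 5.7e-04 for Slfn9). Slfn9 measured 173, 95.3 and 179 CPM in the controls, where control 2 was the low one, and 121, 134 and 136 CPM at 72 h. Reads of the Oas1 copies and of Ifit3 and Ifit3b can be split among near-identical sequences, so the values of single copies are uncertain.

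Interferon-inducible GTPases, which attack the vacuoles of intracellular pathogens, fell in 12 of 12 tested cases, with a median log2 change of -2.80, and Gbp4, Gbp5 and Gbp9 had too few counts. Gvin1, a very large GTPase, measured 107, 55.5 and 88.7 CPM in the controls and 7.23, 8.65 and 16.8 CPM at 72 h. Control 2 was the lowest control and 72 h library 3 the highest treated one, and they were still apart (log2 change -2.95, SE 0.31, adjusted p = 1.6e-04). Gbp3, a guanylate-binding protein, measured 28.8, 21 and 27.9 CPM and 3.46, 3.21 and 3.16 CPM, and its treated libraries were nearly equal (log2 change -2.98, SE 0.15, adjusted p = 1.1e-06). Irgm1, which regulates the other immunity-related GTPases, fell by less, from 43.2, 34.9 and 40.5 CPM to 11.8, 10.6 and 12.7 CPM (log2 change -1.75, SE 0.11, adjusted p = 4.1e-06). Tgtp1 and Tgtp2 are near-identical copies, and their separate values (-3.82, SE 0.79, and -3.72, SE 0.57) depend on how reads were shared between them. For Tgtp1 the change ranged from -6.13 without 72 h library 1 to -3.22 without control 1, and its call ended without 72 h library 3 (log2 change -3.44, adjusted p = 0.057); for Tgtp2 it was -3.13 without 72 h library 1.

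Transcripts for antigen presentation by MHC class I fell, from genes that supply peptides to those of the presenting chains. Of 17 genes tested, 16 fell, with a median log2 change of -0.90. The exception was Psme2, a proteasome activator subunit (log2 change -0.36, SE 0.11, adjusted p = 0.068), which was called lower without control 3 (-0.45, adjusted p = 0.036). Nlrc5, the transactivator of these genes, fell too (log2 change -0.97, SE 0.16, adjusted p = 0.003). B2m, the light chain, measured 539.7, 560.5 and 489 CPM in the controls and 274, 292 and 288 CPM at 72 h. The heavy chain H2-K1 measured 383, 429.6 and 398 CPM and 207, 195 and 236 CPM, and H2-D1 measured 462, 515 and 469 CPM and 254, 248 and 273 CPM. These abundant chains fell by similar amounts without overlap, with log2 changes of -0.90 (SE 0.07), -0.92 (SE 0.09) and -0.90 (SE 0.07). Larger changes were found for the supply of peptides: Psmb8, an immunoproteasome subunit (log2 change -2.47, SE 0.23, adjusted p = 6.0e-05), and Tap1, a chain of the peptide transporter, which went from 44.9, 35.9 and 42.5 CPM to 15, 13.6 and 15.5 CPM (log2 change -1.48, SE 0.11, adjusted p = 1.7e-05). Tapbp, which loads peptides, had a log2 change of -0.82 (SE 0.06). Reads of the H2 heavy chains can be shared among similar genes.

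Secreted immune signals were mixed. Of 10 chemokines tested, 4 fell and 1 rose. Cxcl10, which attracts T cells and is induced by interferon, measured 53.5, 60.7 and 52.3 CPM in the controls and 22.4, 19.8 and 18.1 CPM at 72 h, without overlap (log2 change -1.46, SE 0.10, adjusted p = 6.2e-06). Ccl5 (log2 change -1.48, SE 0.12, adjusted p = 2.5e-05), Ccl7 (log2 change -1.44, SE 0.25, adjusted p = 0.0044) and Ccl2, which attracts monocytes (log2 change -1.14, SE 0.17, adjusted p = 0.0019), also fell, while Cxcl12, which attracts stem and immune cells, rose (log2 change 0.41, SE 0.11, adjusted p = 0.042). The call of Cxcl12 ended without controls 1 or 3, 24 h libraries 1, 2 or 3 or 72 h libraries 1, 2 or 3 (log2 change 0.35 to 0.46, adjusted p = 0.06 to 0.15). Cxcl1 and Cx3cl1 did not pass the test. Of 12 complement genes, 4 fell, among them C3, the central component (log2 change -2.12, SE 0.25, adjusted p = 3.2e-04), and the proteases C1s1 (log2 change -1.40, SE 0.15, adjusted p = 1.9e-04) and C1ra (log2 change -0.95, SE 0.11, adjusted p = 2.6e-04). C3 measured 33, 15.7 and 20 CPM in the controls, of which control 1 was the highest, and 5.53, 5 and 5.22 CPM at 72 h.

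Macrophages express many of these genes, so their markers were read beside them. Of 16 markers, 4 had enough counts to be tested, and the summed level of the list was 10.4 to 12.2 CPM in the controls and 7.85 to 9.05 CPM at 72 h. Itgb2 (log2 change -0.96, SE 0.18, adjusted p = 0.0059) and Cd68 (log2 change -0.84, SE 0.22, adjusted p = 0.038) fell. The other members tested, Cd14 and Mrc1, had positive log2 changes and did not pass the test. Ptprc, Adgre1, Csf1r and Lyz2 were below the test limit. The call of Cd68 ended without any 1 of the 9 libraries (log2 change -0.95 to -0.69, adjusted p = 0.056 to 0.13). The part of such cells in the interferon result was not tested. In bulk RNA, fewer cells of a type and less RNA per cell cannot be told apart.

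Some genes that fell lay near each other on a chromosome. Runs of at least 3 called genes of the same direction, each within 250 kb of the next, held 101 of the 540 genes called lower (18.7%, 26 runs) and 44 of the 666 called higher (6.61%, 13 runs). Each run begins and ends at a called gene, and genes that were not called could lie between its members. Shares of called genes within a run are therefore raised by how it was drawn. The share of genes in such runs was not measured for all tested genes. The genes named in runs were picked by position after their values were seen. On chr5:120730333-120907521, all 6 tested genes fell (Oas2, Oas3, Oas1c, Oas1b, Oas1g and Oas1a). On chr19:34241090-34650009, 6 of 7 fell: Ifit1, Ifit2, Ifit3 and Ifit3b together with Lipa, a lysosomal lipase, and Acta2, smooth muscle actin, which are not classed as interferon genes. Guanylate-binding genes on chr3:142530342-142746870 (Gbp7, Gbp3 and Gbp2 with Kyat3, 4 of 4), Trim genes on chr7:104244457-104507849 (Trim34a, Trim12a, Trim12c, Trim30a and Trim30d, 5 of 6) and Parp14, Dtx3l and Parp9 on chr16:35832874-35972605 (3 of 3) were further runs. In the MHC, 8 of 28 tested genes fell on chr17:33843091-34216321 and 4 of 11 on chr17:35262730-35557180. Among genes called higher, Krt13, Krt19, Krt16, Jup and Acly lay on chr11:100117327-100528000 (5 of 14), and Lss, Col6a2 and Col6a1 on chr10:76531588-76726168 (3 of 4). The Oas1, Trim and Gbp copies are similar in sequence, so counts of single members are uncertain. Some calls in these runs depended on single libraries. The call of Lipa ended without controls 1 or 3, 24 h libraries 1, 2 or 3 or 72 h libraries 1, 2 or 3 (log2 change -0.30 to -0.23, adjusted p = 0.053 to 0.13), and that of Oas1g without controls 1 or 3, 24 h libraries 1, 2 or 3 or 72 h libraries 2 or 3 (log2 change -3.40 to -2.86, adjusted p = 0.063 to 0.14). That of Oas1c ended without 72 h library 2 (log2 change -1.32, adjusted p = 0.063) or without 72 h library 3 (log2 change -1.49, adjusted p = 0.053). Trim12a was not called without control 3 or 72 h libraries 1 or 2 (log2 change -1.01 to -0.89, adjusted p = 0.071 to 0.1). Trim30d was not called without 72 h library 1 (log2 change -2.11, adjusted p = 0.054) or without 72 h library 3 (log2 change -2.22, adjusted p = 0.051).

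The 24 h comparison uses the same controls, so its values stand here only beside those at 72 h, and the difference between the times was not tested. Against those controls, the log2 change at 24 h was -1.87 for Irf7 (adjusted p = 5.9e-06), -1.10 for Isg15 (adjusted p = 9.9e-06) and -1.53 for Bst2 (adjusted p = 1.2e-06). For Oas2, Ifih1 and Ifi27l2a it did not pass the test (-0.89, -0.15 and -0.41). Gvin1, at 160.1, 220.0 and 156 CPM after 24 h, was called higher than control at that time (1.10, adjusted p = 0.012). Ccl2 was likewise higher at 24 h (1.09, adjusted p = 6.4e-04).

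Genes of the hypoxia response moved in the other direction, and the hypoxia response element was searched in the same windows. Its core was searched as ACGTG on either strand, a form of the string bound by the HIF dimer, and no other form was searched. Stretches of 150 bases that end before the start site are shown for a mitophagy receptor, a collagen hydroxylase and a pair of glycolytic enzymes, with matches in capitals. The string reads CACGT on the other strand, so that the palindrome CACGTG counts as a match on each strand.
Bnip3 (chr7:138909537-138909686, minus strand): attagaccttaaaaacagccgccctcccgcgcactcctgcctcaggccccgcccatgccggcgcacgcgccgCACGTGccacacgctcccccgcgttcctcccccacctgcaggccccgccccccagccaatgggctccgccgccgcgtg
P4ha1 (chr10:59323146-59323295, plus strand): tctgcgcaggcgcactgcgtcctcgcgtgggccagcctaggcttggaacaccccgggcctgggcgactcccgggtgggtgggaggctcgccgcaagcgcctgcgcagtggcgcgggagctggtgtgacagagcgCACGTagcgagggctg
Ldha (chr7:46845642-46845791, plus strand): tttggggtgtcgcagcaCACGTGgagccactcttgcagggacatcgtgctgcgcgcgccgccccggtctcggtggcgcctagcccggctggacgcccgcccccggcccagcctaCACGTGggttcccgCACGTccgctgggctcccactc
Pgk1 (chrX:106186887-106187036, plus strand): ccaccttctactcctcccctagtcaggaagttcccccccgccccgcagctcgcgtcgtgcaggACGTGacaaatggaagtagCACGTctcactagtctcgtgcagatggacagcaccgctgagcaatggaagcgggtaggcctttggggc
By this count the stretches hold 2 matches in Bnip3, 1 in P4ha1, 5 in Ldha and 2 in Pgk1. The core occurs in 29.4% of the windows of tested genes (2888 of 9839), in 33.7% of those of genes called higher (165 of 489) and in 27.7% of those called lower (114 of 411). Of genes called higher with a log2 change of 1 or above, 17.6% held it (9 of 51), a lower share than among all tested genes. Its share was 61.9% for HIF targets outside glycolysis (13 of 21) and 63.6% for glycolysis (14 of 22). The circadian genes, which are not a HIF list, had 60% (9 of 15), so a high share is not limited to the hypoxia lists.

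Among the regulators of HIF, 4 of 11 rose, 6 without control 2. Hif1a, the oxygen-regulated subunit, at chr12:73901375-73947530, measured 313, 273 and 312 CPM in the controls and 399.6, 400.3 and 418 CPM at 72 h. The groups did not overlap (log2 change 0.44, SE 0.06, adjusted p = 0.0014). Egln1, the main prolyl hydroxylase that marks HIF for destruction and itself a HIF target, measured 80.9, 82.2 and 82.6 CPM and 146, 142 and 136 CPM, with a narrow spread in both groups (log2 change 0.79, SE 0.06, adjusted p = 1.3e-05). Egln3, a second hydroxylase, went from 8.26, 9.65 and 9.15 CPM to 24, 22.2 and 23.5 CPM (log2 change 1.37, SE 0.12, adjusted p = 4.0e-05). Siah2, a ligase for the hydroxylases, rose as well (log2 change 0.39, SE 0.09, adjusted p = 0.023), a call that ended without controls 1 or 3 or 72 h libraries 1 or 2 (log2 change 0.33 to 0.41, adjusted p = 0.063 to 0.1). Vhl, the ligase that recognises hydroxylated HIF, Arnt, its constant partner, Hif1an and Egln2 did not pass the test, with log2 changes from -0.20 (Egln2) to 0.18 (Vhl). Of these, Vhl was called higher without control 2 (log2 change 0.31, adjusted p = 0.031).

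HIF targets outside glycolysis rose in 18 of 28 cases (21 without control 2), with a median log2 change of 0.45. Car9, a membrane carbonic anhydrase that disposes of acid, lies at chr4:43506966-43513729. It measured 6.93, 8.61 and 9.02 CPM in the controls and 52.5, 47.1 and 52 CPM at 72 h, a 6.17-fold higher level with all libraries apart (log2 change 2.63, SE 0.14, adjusted p = 1.7e-06). Pdk1, which shuts pyruvate out of the citric acid cycle, measured 57.9, 58.1 and 56 CPM and 139, 136 and 134 CPM, and the spread within either group was small (log2 change 1.25, SE 0.07, adjusted p = 2.2e-06). Bnip3, a mitophagy receptor, went from 74.5, 91.1 and 78.5 CPM to 185, 181 and 175 CPM (log2 change 1.15, SE 0.08, adjusted p = 1.3e-05). The secreted peptide apelin (Apln) measured 7.06, 6.34 and 5.12 CPM and 25.2, 23.7 and 22.1 CPM and was among the largest increases (log2 change 1.94, SE 0.14, adjusted p = 1.3e-05). Fam162a, a mitochondrial protein, measured 99.6, 142 and 98 CPM and 222, 228 and 219 CPM; control 2 was the highest control and still below all treated libraries (log2 change 0.98, SE 0.12, adjusted p = 4.7e-04). Vegfa, the main angiogenic growth factor, had a smaller increase (log2 change 0.43, SE 0.06, adjusted p = 0.0014), and Ndrg1, often used as a hypoxia marker, missed the threshold (log2 change 0.23, SE 0.07, adjusted p = 0.054). Ndrg1 was called higher without control 2 (log2 change 0.26, adjusted p = 0.009).

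**Figure D4:**
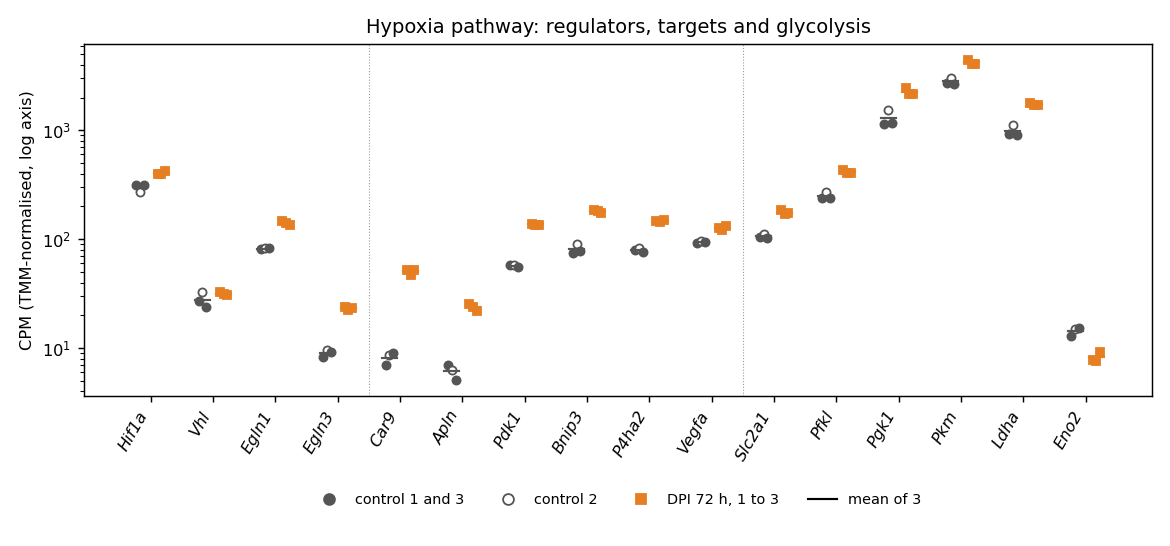
CPM on a log axis in each control library (grey, control 2 open) and each 72 h library (orange squares) for regulators of HIF, HIF targets and glycolytic genes. The squares lie above the controls for Egln1, Egln3, Car9, Pdk1, Bnip3 and the glycolytic enzymes and below them for Eno2, and Vhl overlaps.

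Most genes of glycolysis rose: of 23 tested, 15 rose, 1 fell and 7 did not pass the test, with a median log2 change of 0.50. The glucose transporter Slc2a1 measured 106, 112 and 103 CPM in the controls and 186, 169 and 172 CPM at 72 h (log2 change 0.71, SE 0.07, adjusted p = 7.9e-05). Treated libraries lay above all controls for it and for every glycolytic enzyme named next. Pgk1 measured 1140.1, 1533 and 1178 CPM and 2427, 2165 and 2171 CPM; control 2 was its highest control, and the log2 change was 0.81 with it (SE 0.10) and 0.96 without it. Ldha, which turns pyruvate into lactate, measured 919, 1127 and 897 CPM and 1795, 1713 and 1691 CPM (log2 change 0.82, SE 0.08, adjusted p = 9.7e-05). Pkm, the pyruvate kinase, measured 2739.5, 3053 and 2656 CPM and 4424, 4089.9 and 4088 CPM (log2 change 0.58, SE 0.06, adjusted p = 1.1e-04). Log2 changes of the steps between ranged from 0.36 (Hk2) to 0.74 (Pfkl), with 0.48 for Gpi1, 0.50 for Aldoa, 0.62 for Tpi1, 0.56 for Gapdh, 0.66 for Pgam1 and 0.68 for Eno1. Gpi1, Gapdh, Aldoa and Hk2 were named after their values were seen; the call of Hk2 ended without 72 h library 1 (log2 change 0.33, adjusted p = 0.079) or without 72 h library 3 (log2 change 0.38, adjusted p = 0.052).

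The gene that fell was Eno2, the neuronal enolase, from 13, 14.9 and 15.4 CPM to 7.83, 7.66 and 9.29 CPM (log2 change -0.80, SE 0.13, adjusted p = 0.0029). Of the lactate carriers, Slc16a1 rose (log2 change 0.29, SE 0.06, adjusted p = 0.011), a call that ended without 72 h library 3 (log2 change 0.28, adjusted p = 0.052). Slc16a3, at under 2 CPM in every library, did not pass the test. Per kilobase of exon, Eno1 stood at 309.6 CPM per kb in the controls and 496 at 72 h, against 3.07 and 1.76 CPM per kb for Eno2. Enolase transcript in these cells was thus nearly all Eno1 in both groups. The citric acid cycle showed no such shift: of 28 genes, Idh1 (0.41) and Aco1 (0.31) rose and Pcx, pyruvate carboxylase (-0.32), fell, and the median log2 change was -0.02. Idh1 and Aco1 encode cytosolic enzymes, and Aco1 is also an iron sensor. With 1 library left out, the counts were 1 without control 3 or 72 h libraries 1 or 2 and 4 without control 2 for those called higher and 0 without control 3 or 72 h libraries 2 or 3 for those called lower. The call of Aco1 ended without control 3 or 72 h libraries 1 or 2 (log2 change 0.26 to 0.31, adjusted p = 0.053 to 0.072), and that of Pcx without control 3 or 72 h libraries 2 or 3 (log2 change -0.31 to -0.28, adjusted p = 0.054 to 0.089).

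Beside these, the 24 h libraries gave other values against the shared controls. At 24 h, the log2 change was 0.04 for Car9, -0.27 for Egln3 and -0.07 for Ldha, none of which passed the test. It was negative and called for Pdk1 (-0.52, adjusted p = 5.5e-04), Bnip3 (-0.59, adjusted p = 6.1e-04), Slc2a1 (-0.54, adjusted p = 2.7e-04), Vegfa (-0.88, adjusted p = 5.1e-06) and Ero1l, an oxidase of the endoplasmic reticulum (-1.66, adjusted p = 1.8e-07). Apln was called higher at both times (1.54 at 24 h, 1.94 at 72 h).

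Carbonic anhydrases went both ways. Besides Car9, the secreted enzyme Car6 measured 94.3, 111 and 99.7 CPM in the controls and 33.3, 36.1 and 37.9 CPM at 72 h, and the cytosolic Car13 measured 29.9, 25.8 and 28.8 CPM and 14.8, 16.4 and 15.2 CPM. Both fell without overlap, Car6 by more (log2 change -1.51, SE 0.10, adjusted p = 7.1e-06) than Car13 (log2 change -0.86, SE 0.08, adjusted p = 8.6e-05).

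Many lysosomal genes fell by modest amounts. Of 38 hydrolases and their cofactors tested, 18 fell, 0 rose and 20 did not pass the test, and the median log2 change was -0.30. Gla, the galactosidase missing in Fabry disease, measured 22.7, 23.8 and 24.5 CPM in the controls and 13.5, 12.6 and 13.4 CPM at 72 h (log2 change -0.85, SE 0.08, adjusted p = 5.5e-05). Hexa, a hexosaminidase subunit, measured 95.3, 115 and 96.2 CPM and 64.7, 59.7 and 62.5 CPM (log2 change -0.71, SE 0.08, adjusted p = 2.5e-04). Both were lower in every treated library than in any control. The protective protein Ctsa (-0.71, SE 0.07) and the peptidases Tpp1 (-0.58, SE 0.06) and Scpep1 (-0.64, SE 0.05) fell by between 0.58 and 0.71. Psap, which encodes the saposins, measured 1148, 1301 and 1146 CPM and 1004, 946 and 946 CPM. Its change was small and the groups did not overlap (log2 change -0.31, SE 0.06, adjusted p = 0.0078); the protease Ctsb had a like change (log2 change -0.31, SE 0.06, adjusted p = 0.0071), and Ctsd did not pass the test (log2 change -0.22, SE 0.08, adjusted p = 0.13).

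The membrane of the lysosome and its proton pump followed: 16 of 26 genes fell and 10 did not pass the test, with a median log2 change of -0.38. Lamp1, a main membrane glycoprotein, measured 1160.3, 1197 and 1104 CPM in the controls and 791, 848 and 797 CPM at 72 h, and Lamp2 measured 534, 510.0 and 496 CPM and 361, 364 and 367 CPM. Neither overlapped, and the changes were alike (-0.51, SE 0.05, adjusted p = 1.3e-04, and -0.50, SE 0.05, adjusted p = 1.5e-04). Atp6ap2, an accessory subunit of the proton pump, had the largest change of the named members, from 244, 309.8 and 231 CPM, highest in control 2, to 149, 148 and 152 CPM (log2 change -0.80, SE 0.10, adjusted p = 4.7e-04). Pump subunits Atp6v1b2 (-0.42), Atp6v1e1 (-0.45) and Atp6v1h (-0.40) fell by smaller amounts. The palindrome TCACGTGA, a form of the E-box bound by MiT factors, occurs in 5 of 21 windows of this list (23.8%) and in 3 of 30 of the hydrolases (10%), against 2.26% of those of all tested genes (222 of 9839) and 4.62% of those called lower (19 of 411). It contains the hypoxia core ACGTG on both strands, so the searches overlap.

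The factors that drive lysosomal genes did not themselves pass the test: Tfeb had a log2 change of 0.15 (SE 0.19), Tfe3 of 0.01 (SE 0.05) and Mitf of 0.12 (SE 0.15). Gpnmb, a glycoprotein that these factors induce, at chr6:49036546-49070929, measured 100.1, 94.4 and 96.9 CPM in the controls and 16.6, 18 and 14.5 CPM at 72 h. It had one of the smallest p-values of the comparison and no overlap (log2 change -2.57, SE 0.08, adjusted p = 6.3e-08). Flcn, folliculin, which restrains Tfeb and Tfe3 and is also their target, went from 42.7, 51.5 and 52.6 CPM to 28.5, 28.2 and 31.6 CPM (log2 change -0.73, SE 0.09, adjusted p = 3.8e-04). Of 29 autophagy genes, 4 fell (13.8%, against 3.83% of all genes tested), and the median log2 change was only -0.11. Among the 4 were the cargo receptor Sqstm1, from 927, 1055 and 907 CPM to 587, 537 and 545 CPM (log2 change -0.79, SE 0.07, adjusted p = 3.2e-05), and Gabarap, a membrane tag of autophagosomes (log2 change -0.53, SE 0.09, adjusted p = 0.003). With 1 library left out, the count was 2 without control 1, 24 h libraries 1, 2 or 3 or 72 h libraries 1 or 2 for those called lower. At 24 h, against the same controls, Gpnmb was called higher (0.58, adjusted p = 2.3e-04), as was Ctsb (0.33, adjusted p = 0.0023), and Lamp1 did not pass the test (0.13).

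The iron genes that passed the test differed by role, and several of these calls depended on single libraries. Transcripts of the storage proteins fell. Ftl1, which encodes ferritin light chain, measured 1596, 2121 and 1627 CPM in the controls, of which control 2 was the highest. At 72 h it measured 959, 949 and 944 CPM (log2 change -0.91, SE 0.09, adjusted p = 1.4e-04, and -0.76 without control 2). Ferritin heavy chain Fth1 measured 1458, 1766 and 1346 CPM and 1202, 1276 and 1081 CPM, a smaller fall (log2 change -0.36, SE 0.09, adjusted p = 0.038). Exporters fell as well, from low levels: the iron channel Slc40a1, ferroportin (log2 change -1.38, SE 0.37, adjusted p = 0.045), and the ferroxidase Cp, ceruloplasmin, from 4.04, 3.03 and 4.67 CPM to 0.547, 0.865 and 1.35 CPM (log2 change -2.08, SE 0.32, adjusted p = 0.0018). The uptake receptor Tfrc rose, from 261, 209 and 229 CPM to 343, 391 and 338 CPM with no overlap (log2 change 0.62, SE 0.09, adjusted p = 0.0012). The importer Slc39a14 (log2 change 0.27, SE 0.07, adjusted p = 0.038) and Aco1, the iron-responsive protein IRP1 (log2 change 0.31, SE 0.07, adjusted p = 0.015), rose a little. The list of 16 genes thus had 3 higher and 4 lower, and its median log2 change was -0.01. With 1 library left out, the counts were 1 without control 3 or 72 h libraries 1 or 2 for those called higher and 2 without control 1, 24 h library 3 or 72 h libraries 1, 2 or 3 for those called lower. The call of Fth1 ended without control 1, 24 h libraries 1, 2 or 3 or 72 h libraries 1, 2 or 3 (log2 change -0.42 to -0.30, adjusted p = 0.054 to 0.15), that of Slc40a1 without controls 1 or 3, 24 h library 3 or 72 h libraries 1, 2 or 3 (log2 change -1.45 to -1.24, adjusted p = 0.074 to 0.15), that of Slc39a14 without control 3, 24 h libraries 1, 2 or 3 or 72 h libraries 1, 2 or 3 (log2 change 0.26 to 0.30, adjusted p = 0.059 to 0.13) and that of Aco1 without control 3 or 72 h libraries 1 or 2 (log2 change 0.26 to 0.31, adjusted p = 0.053 to 0.072).

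**Figure D5:**
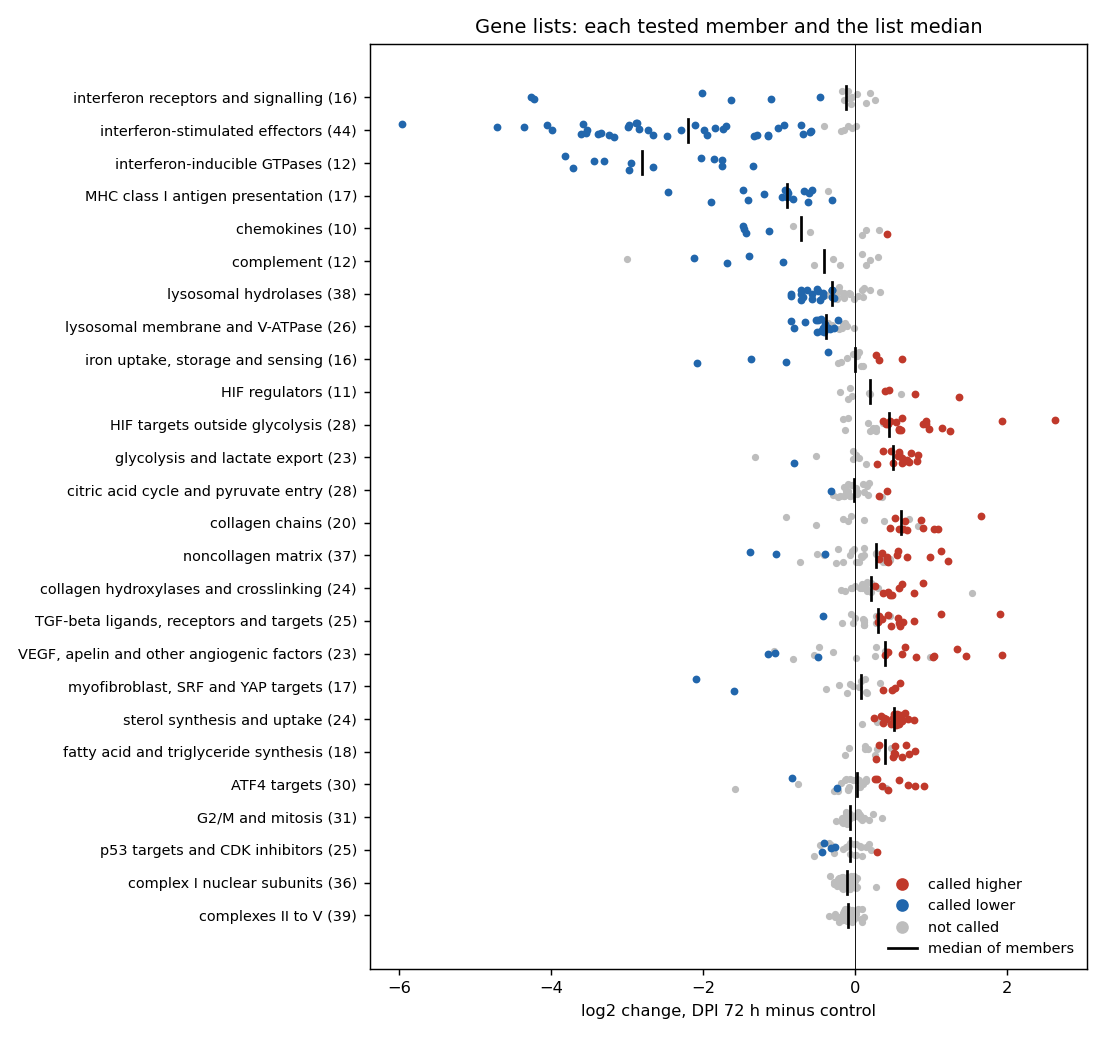
Log2 change at 72 h against control (horizontal axis) for each tested member of 26 gene lists (rows), with the median of each list marked. Interferon effectors, GTPases and MHC class I lie to the left, lysosomal lists slightly left, HIF targets, glycolysis, collagens and sterol synthesis to the right, and the respiratory chain lists around 0.

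Collagen chains rose in 11 of 20 cases (without control 2, 12 rose and 1 fell), and the median log2 change was 0.60. Col1a1, a chain of type I collagen, at chr11:94936224-94953042, measured 1808, 1594 and 1714 CPM in the controls and 4056, 3201 and 3241 CPM at 72 h, highest in library 1 (log2 change 1.04, SE 0.09, adjusted p = 3.0e-05). Its partner Col1a2 measured 1988, 1831 and 1939 CPM and 3290.5, 2795 and 2975 CPM (log2 change 0.65, SE 0.06, adjusted p = 7.4e-05). Treated libraries were above all controls for both chains. Col6a3, of the microfibrillar type VI, measured 137, 77.7 and 124 CPM in the controls, where control 2 was low, and 364, 355 and 345 CPM at 72 h (log2 change 1.66, SE 0.16, adjusted p = 9.8e-05), and its change without control 2 was 1.45. Its partners Col6a1 (0.68, SE 0.07) and Col6a2 (0.57, SE 0.08) rose by less, and so did the basement membrane chains Col4a1 (0.63) and Col4a2 (0.52). Col16a1, which organises fibrils, went from 40.8, 39 and 37.7 CPM to 87.9, 77.3 and 84.7 CPM (log2 change 1.09, SE 0.08, adjusted p = 1.6e-05). The fibril chain Col5a2 did not pass the test (log2 change 0.11, SE 0.06, adjusted p = 0.32), and Col3a1, a chain common in skin fibroblasts, was near 2 CPM throughout.

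Enzymes that modify collagen rose in 9 of 24 cases (without control 2, 12 rose and 1 fell). The prolyl hydroxylase subunit P4ha2 measured 79, 82.9 and 76.2 CPM in the controls and 148, 143 and 149 CPM at 72 h (log2 change 0.89, SE 0.06, adjusted p = 4.3e-06), and P4ha1 measured 199.6, 207 and 205 CPM and 321, 296 and 323 CPM (log2 change 0.62, SE 0.06, adjusted p = 1.1e-04). The groups were far apart for both catalytic subunits, whereas the shared subunit P4hb changed by only 0.26 (SE 0.06, adjusted p = 0.015) and was not called without controls 1 or 3 or 72 h libraries 1 or 2 (log2 change 0.23 to 0.27, adjusted p = 0.053 to 0.065). The lysyl hydroxylase Plod2 (log2 change 0.43, SE 0.07, adjusted p = 0.0019) and the crosslinking oxidases Lox (log2 change 0.57, SE 0.06, adjusted p = 2.3e-04) and Loxl2 (log2 change 0.77, SE 0.10, adjusted p = 4.7e-04) rose, while the collagen chaperone Serpinh1 missed the threshold (log2 change 0.16, SE 0.06, adjusted p = 0.15). Serpinh1 was called higher without control 2 (log2 change 0.22, adjusted p = 0.0016). Several of these genes are HIF targets as well and are counted in both lists.

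Other matrix genes were less uniform, with 12 of 37 higher and 3 lower. Osteopontin (Spp1) measured 614, 623 and 532 CPM in the controls and 1113, 1214 and 1164 CPM at 72 h (log2 change 0.98, SE 0.07, adjusted p = 9.0e-06). Fibulin 2 (Fbln2), a basement membrane protein, went from 616, 570.0 and 576 CPM to 1002, 903 and 922 CPM (log2 change 0.68, SE 0.06, adjusted p = 3.2e-05), and Ltbp1, which tethers latent TGF-beta to the matrix, from 318, 287 and 294 CPM to 444, 439 and 442 CPM (log2 change 0.56, SE 0.06, adjusted p = 1.1e-04). Neither of these, nor tenascin C (Tnc) and the proteoglycan Acan, which also rose, overlapped between the groups. Igfbp7, a secreted binder of insulin and activin, fell from 18.1, 18.3 and 16.4 CPM to 5.71, 7.35 and 7.1 CPM (log2 change -1.39, SE 0.14, adjusted p = 1.5e-04). Fn1, fibronectin, did not pass the test: it measured 2787, 1357 and 2579.7 CPM and 2469, 2352 and 2427 CPM, and control 2 lay far under the other controls. Without control 2, Fn1 was called lower at a log2 change of -0.15, and 6 of the list were called lower in place of 3. Of 17 proteases and inhibitors, 5 rose, including the inhibitor Timp2, from 632, 593 and 616 CPM to 831, 830.3 and 813 CPM (log2 change 0.43, SE 0.05, adjusted p = 2.7e-04), and the plasminogen activator Plat (log2 change 0.83, SE 0.11, adjusted p = 7.5e-04), and the gelatinase Mmp2 fell (log2 change -0.39, SE 0.06, adjusted p = 0.0027).

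Genes of TGF-beta signalling rose in 12 of 25 cases, and 1 fell. The ligands differed: Tgfb1 fell (log2 change -0.42, SE 0.10, adjusted p = 0.025), and Tgfb3 rose (log2 change 0.42, SE 0.07, adjusted p = 0.0042), as did the activin subunit Inhba (log2 change 0.58, SE 0.08, adjusted p = 7.2e-04). The call of Tgfb1, the one member that fell, ended without control 3 or 72 h libraries 2 or 3 (log2 change -0.43 to -0.39, adjusted p = 0.059 to 0.097). Tgfbr2, the receptor that binds the ligand, measured 219.8, 175 and 210.1 CPM in the controls and 294, 271 and 269.6 CPM at 72 h (log2 change 0.47, SE 0.08, adjusted p = 0.0046). Of the targets, Id1 measured 10, 12.6 and 9.85 CPM and 22.4, 29.1 and 19.9 CPM (log2 change 1.13, SE 0.16, adjusted p = 9.2e-04), and Id3 measured 34.1, 44.5 and 33.1 CPM and 59, 68.4 and 63.5 CPM (log2 change 0.77, SE 0.11, adjusted p = 0.0013); these inhibitors of helix-loop-helix factors answer mainly to BMP ligands. Both were above all controls in every treated library. Tgfbi, an adhesion protein named for its induction by TGF-beta, went from 0.724, 0.717 and 1.09 CPM to 3.95, 2.66 and 2.84 CPM (log2 change 1.90, SE 0.34, adjusted p = 0.0051), and Ccn2, a matricellular target, rose too (log2 change 0.59, SE 0.10, adjusted p = 0.0028). At 24 h, against the shared controls, Id1 (-0.73, adjusted p = 0.0087) and Id3 (-1.29, adjusted p = 2.9e-05) were called lower.

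Of 17 tested genes of myofibroblasts and targets of SRF and YAP, 4 rose and 2 fell (6 and 2 without control 2), and the median log2 change was 0.08. The pair that fell were contractile genes. Acta2, the actin that marks myofibroblasts, at chr19:34241090-34255590, measured 17.5, 22.8 and 21.4 CPM in the controls and 5.1, 5.19 and 4.06 CPM at 72 h. It fell 4.29-fold, with no treated library near a control (log2 change -2.10, SE 0.16, adjusted p = 1.4e-05). Tagln, an actin-binding protein of smooth muscle, fell from 7.06, 9.21 and 5.88 CPM to 2.92, 1.85 and 2.58 CPM (log2 change -1.59, SE 0.23, adjusted p = 0.0012). Adhesion and cytoskeletal genes of the same list went up, with Vcl, vinculin (log2 change 0.52, SE 0.09, adjusted p = 0.0045), and Actn1, an actinin (log2 change 0.37, SE 0.07, adjusted p = 0.0081). Flna, Tpm1 and Ccn1 did not pass the test with all libraries. Tpm1 was called higher without control 2 (log2 change 0.20, adjusted p = 9.3e-04). Flna was called higher without control 2 (0.17, adjusted p = 0.024) and without control 1 (0.45, adjusted p = 0.037). Cnn1 and Myl9 were not tested, and the other smooth muscle and pericyte markers tested divided: Cspg4, a proteoglycan of pericytes, rose from 138, 101 and 138 CPM to 239, 217 and 219 CPM (log2 change 0.84, SE 0.11, adjusted p = 5.2e-04), and Notch3, Mcam and Des did not pass the test.

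Angiogenic factors rose in 10 of 23 cases and fell in 3. Angptl2, a secreted angiopoietin-like protein, measured 48.5, 48.3 and 46.4 CPM in the controls and 102, 92.1 and 100.1 CPM at 72 h, with both groups tight (log2 change 1.04, SE 0.06, adjusted p = 2.6e-06). Aqp1, a water channel, went from 11.2, 8.77 and 10.3 CPM to 29.7, 26.4 and 26.7 CPM (log2 change 1.45, SE 0.10, adjusted p = 1.2e-05). Angptl4, an inhibitor of lipoprotein lipase (log2 change 1.34, SE 0.14, adjusted p = 1.5e-04), and Esm1 or endocan (log2 change 1.02, SE 0.11, adjusted p = 1.5e-04) had similar increases from lower levels. Of the receptors, Flt1, which binds VEGF (log2 change 0.66, SE 0.09, adjusted p = 7.7e-04), and Nrp1, its coreceptor (log2 change 0.80, SE 0.13, adjusted p = 0.0028), rose. The ligands Pdgfb (log2 change -1.05, SE 0.20, adjusted p = 0.0083) and Vegfb (log2 change -0.49, SE 0.11, adjusted p = 0.022) and the related Angptl6 (log2 change -1.15, SE 0.15, adjusted p = 7.7e-04) fell; the call of Vegfb ended without 72 h libraries 1, 2 or 3 (log2 change -0.52 to -0.47, adjusted p = 0.06 to 0.09). Endothelial markers summed to 21.4 to 23.7 CPM in the controls and 30.3 to 31.7 CPM at 72 h, most of it Flt1. Pecam1 and Cdh5 were below the test limit. Of the 4 markers tested, Flt1 alone was called, 2 had positive changes and the median log2 change was -0.12. Kdr was lower at an unadjusted p under 0.05 in edgeR. The part of endothelial cells in this result was not tested.

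Sterol synthesis rose in 20 of 24 genes (23 without control 2), with a median log2 change of 0.51. Idi1, an isomerase of isoprenoid units, measured 114, 122 and 112 CPM in the controls and 173, 183 and 166 CPM at 72 h (log2 change 0.58, SE 0.07, adjusted p = 2.3e-04). Fdps, which makes farnesyl diphosphate, went from 186, 232 and 187 CPM, highest in control 2, to 309, 295 and 289 CPM (log2 change 0.56, SE 0.08, adjusted p = 0.0016), and Lss, which closes the sterol rings, from 84.8, 78.3 and 86.3 CPM to 114, 118 and 122 CPM (log2 change 0.50, SE 0.06, adjusted p = 3.0e-04). None of these overlapped. Insig1, which holds the sterol sensor in the endoplasmic reticulum (log2 change 0.51, SE 0.05, adjusted p = 1.5e-04), and Srebf2, the transcription factor of the pathway (log2 change 0.36, SE 0.06, adjusted p = 0.0049), rose as well. At 24 h, against the shared controls, the median log2 change of the list was 1.24.

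Fatty acid and triglyceride synthesis rose in 10 of 18 genes (13 without control 2). Scd2, a desaturase, measured 1597, 1525 and 1628 CPM and 2816, 2692 and 2672 CPM, with each group within a narrow range (log2 change 0.78, SE 0.05, adjusted p = 2.2e-06). Fasn, the fatty acid synthase, measured 572, 387 and 526 CPM, lowest in control 2, and 863, 797 and 755 CPM (log2 change 0.70, SE 0.12, adjusted p = 0.0035). Acly, which supplies acetyl-CoA from citrate (log2 change 0.52, SE 0.06, adjusted p = 3.5e-04), and Lpin1, a phosphatidate phosphatase (log2 change 0.67, SE 0.09, adjusted p = 6.2e-04), rose too. Npc2, which moves cholesterol out of the lysosome, fell from 208, 249 and 202 CPM to 142, 138 and 139 CPM (log2 change -0.65, SE 0.08, adjusted p = 3.5e-04).

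Some growth signals rose, and few genes of the cell cycle passed the test. Of 28 immediate early genes, 10 rose and 1, the phosphatase gene Dusp4, fell (log2 change -0.97, SE 0.19, adjusted p = 0.0076). Those that rose included the AP-1 subunits Fosl1, from 35.3, 34.3 and 34.5 CPM to 54.8, 57.6 and 57.9 CPM (log2 change 0.71, SE 0.06, adjusted p = 2.7e-05), and Jun (log2 change 0.57, SE 0.09, adjusted p = 0.0021), and Dusp6, a phosphatase of ERK (log2 change 0.90, SE 0.16, adjusted p = 0.0057). Fos and Egr1 did not pass the test. Cyclin D1 (Ccnd1) measured 259, 239 and 247 CPM and 356, 389 and 359.8 CPM (log2 change 0.57, SE 0.06, adjusted p = 1.5e-04), and 5 of 34 genes of G1/S rose (without control 2, 8 rose and 1 fell). For mitosis, edgeR called none of 31 genes; 5 were lower at an unadjusted p under 0.05, DESeq2 and limma voom called none, and 3 were called lower without control 2. Mki67 measured 703, 309.9 and 683 CPM and 694, 740.4 and 737 CPM, and the low value was again control 2. Of 25 p53 targets and CDK inhibitors, 4 fell and 1 rose. The inhibitor Cdkn1a (log2 change -0.44, SE 0.10, adjusted p = 0.024), the p53 ligase Mdm2 (log2 change -0.32, SE 0.06, adjusted p = 0.0062) and Ccng1 (log2 change -0.27, SE 0.06, adjusted p = 0.027) were among those that fell. With 1 library left out, the counts were 0 without control 3, 24 h libraries 1, 2 or 3 or 72 h libraries 1 or 3 and 2 without control 2 for those called higher and 2 without control 3, 24 h libraries 2 or 3 or 72 h libraries 1, 2 or 3 for those called lower. The call of Cdkn1a ended without control 3 or 72 h libraries 1 or 2 (log2 change -0.42 to -0.39, adjusted p = 0.072 to 0.11), and that of Ccng1 without control 1, 24 h libraries 2 or 3 or 72 h libraries 1 or 3 (log2 change -0.28 to -0.22, adjusted p = 0.053 to 0.11).

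The nuclear subunits of complex I, whose assembly the study concerns, did not pass the test. EdgeR called none of 36 nuclear subunits; at an unadjusted p under 0.05, 1 was higher and 3 were lower, and DESeq2 and limma voom called none. Ndufv1, the subunit that holds FMN, measured 108, 139 and 103 CPM in the controls and 116, 96.1 and 109 CPM at 72 h. The groups overlapped (log2 change -0.12, SE 0.11, adjusted p = 0.57). Control 2 was its highest library, as for many short transcripts, and the median of the list moved from -0.11 to 0.02 without control 2. Ndufv3, an accessory subunit beside the FMN site, was then called higher (0.35). Of 18 assembly factors of complex I, 1 rose (5.56%) and 1 fell (5.56%), near the shares of all genes tested (4.73% and 3.83%). Acad9 measured 56.9, 59.6 and 62.5 CPM in the controls and 72.2, 67.1 and 71.3 CPM at 72 h (log2 change 0.23, SE 0.06, adjusted p = 0.043), and Ndufaf6 measured 10, 14 and 11.3 CPM and 8.38, 7.54 and 7.03 CPM (log2 change -0.62, SE 0.15, adjusted p = 0.023). Neither overlapped. The call of Acad9 ended without controls 1 or 3, 24 h libraries 1, 2 or 3 or 72 h libraries 1, 2 or 3 (log2 change 0.20 to 0.27, adjusted p = 0.054 to 0.15), and that of Ndufaf6 without control 3 or 72 h libraries 2 or 3 (log2 change -0.65 to -0.56, adjusted p = 0.05 to 0.095). Among subunits encoded by mitochondrial DNA, mt-Nd6 was called lower (log2 change -0.35, SE 0.09, adjusted p = 0.03), a call that ended without control 1, 24 h library 2 or 72 h libraries 1 or 3 (log2 change -0.38 to -0.27, adjusted p = 0.059 to 0.11). The other respiratory complexes had no call in edgeR among 39 genes, with 2 lower at an unadjusted p under 0.05, none by DESeq2 or limma voom, and 3 higher without control 2.

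Of the genes that supply flavins, Rfk, the kinase that makes FMN (log2 change -0.15, SE 0.08, adjusted p = 0.31), and Flad1, which makes FAD (log2 change -0.29, SE 0.12, adjusted p = 0.16), did not pass the test. Enpp1, which can split FAD into FMN outside the cell, measured 16.8, 16.3 and 16.1 CPM in the controls and 28.2, 31.6 and 29.4 CPM at 72 h and rose without overlap (log2 change 0.86, SE 0.09, adjusted p = 1.8e-04). Among enzymes with a flavin that DPI may reach, Xdh, xanthine dehydrogenase, fell from 75.8, 51.5 and 66.1 CPM to 38.3, 37.7 and 30.8 CPM (log2 change -0.85, SE 0.13, adjusted p = 0.0021), as did Nqo1 (log2 change -0.38, SE 0.08, adjusted p = 0.012), and Cyb5r3, a cytochrome b5 reductase, rose from 310.4, 332 and 299 CPM to 432, 421 and 396 CPM (log2 change 0.41, SE 0.06, adjusted p = 0.0024). Of 16 such genes tested, 2 rose and 2 fell. With 1 library left out, the counts were 1 without controls 1 or 3, 24 h libraries 1, 2 or 3 or 72 h libraries 1, 2 or 3 for those called higher and 1 without 72 h libraries 1 or 3 for those called lower, and the call of Nqo1 ended without 72 h library 1 (log2 change -0.33, adjusted p = 0.065) or without 72 h library 3 (log2 change -0.36, adjusted p = 0.06).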

How the data were processed

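The data are gene counts for 9 RNA libraries that the authors deposited; the submitters' processing notes name Trim Galore, cutadapt, STAR, RSEM, edgeR, limma and GRCm38, with no versions, and the RNA was total RNA made into TruSeq libraries. Neither the annotation release nor the strand setting of the counting is given in the sources used here. Genes without a symbol (105 identifiers) kept their Ensembl identifier. Gene positions come from GENCODE M21 on GRCm38. Counts were fitted with edgeR 4.0.16 (R 4.3.3): all 9 libraries, 1 mean per group, TMM scaling, filterByExpr, the quasi-likelihood test, and Benjamini-Hochberg adjustment over all 14088 genes at 0.05. Every adjusted p is from this test, and each SE was derived as the size of the log2 change over the square root of F. CPM use the TMM-scaled totals. Depth was 15292736 to 17923656 counts, which covers counting error only. With 3 libraries against 3, an exact permutation test cannot go below 0.1. On simulated counts for 13673 genes, the fit recovered 53.7% of 1.5-fold, 76.9% of 2-fold and 97.1% of 4-fold changes, and 2.56% of its calls were unchanged genes. The simulation changed 200 genes, at 72 h only, and gave control 2 no shift by gene length. Its rates therefore need not hold for the real counts. DESeq2 1.42.0 and limma 3.58.1 were alternatives.

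The comparison, its gene lists and tests were chosen with earlier results of these data known. Named genes were the 30 largest called changes in each direction with a mean of at least 2 CPM and no overlap between groups, the 8 members of a list with the smallest p and its 3 most abundant, the 15 most abundant called genes in each direction, and members of the lists on HIF regulators, interferon signalling, flavin supply, complex I, MiT factors and cell types. Aldoa, Cgas, Col3a1, Col4a2, Col6a2, Ctsd, Dtx3l, Dusp4, Egr1, Eno2, Fam162a, Fos, Gapdh, Gpi1, Hk2, Ifit1, Ifit2, Jup, Kyat3, Lipa, Ndrg1, Nlrc5, Nrp1, Oas1c, Oas1g, Oas3, Parp14, Parp9, Pdgfb, Psme2, Slc16a1, Slc16a3, Tgfb1, Trim12a, Trim12c, Trim30a, Trim30d, Trim34a, Vegfb and mt-Rnr1 were named outside it, after their values were seen. Promoter sequences are RefSeq's for GRCm38.p6; a promoter window missing from that table was not sought elsewhere.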

Additional observations from a re-analysis of the deposited data

How the results depend on the processing

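Of the 1206 calls at 72 h, counts under other settings were 774 with the 6 compared libraries alone (433 higher, 341 lower) and 2099 with a length and GC correction and no control 2 (1235 higher, 864 lower). With the correction alone there were 1743, with no filter on low counts 1702, and with DESeq2 1513. Leaving out 1 library at a time gave 736 to 1965 calls, 425 to 1100 higher and 311 to 865 lower. Genes with a log2 change of at least 1 numbered 372 without the filter, 120 at a mean of at least 5 CPM, and 177 to 272 with a library left out. Scaling by upper quartiles gave 594 higher and 597 lower.

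Replicate numbers do not pair the libraries: same-numbered control and 72 h libraries had deviations correlated at -0.0925 to -0.00686. A replicate block gave 911 calls, 518 higher and 393 lower.

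Of 248 genes given here, 201 were called, 173 of them with each library left out in turn and 200 without control 2. Fn1, not called at a log2 change of 0.11, ran from -0.15 (called, without control 2) to 0.30 with 1 library left out and was -0.14 with the correction and no control 2. The causes of these differences were not tested. At this depth, genes with few counts in every group, such as those encoding interferons, could not be tested.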

Other observations

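Genes better known from epithelia were among the largest increases at 72 h. Krt16, a keratin of stressed epidermis, measured 2.17, 2.1 and 1.98 CPM in the controls and 10.9, 11.6 and 12.3 CPM at 72 h, without overlap (log2 change 2.47, SE 0.19, adjusted p = 1.6e-05). Serpinb5, or maspin, a protease inhibitor homologue of epithelia, went from 1.33, 1.05 and 0.767 CPM to 6.19, 5.56 and 5.87 CPM (log2 change 2.48, SE 0.29, adjusted p = 2.8e-04). Krt13 (log2 change 2.12, SE 0.39, adjusted p = 0.0061), Krt8 (log2 change 1.86, SE 0.28, adjusted p = 0.0017) and Krt19, from 18, 27.1 and 20.4 CPM to 45.7, 37.9 and 38.4 CPM (log2 change 0.89, SE 0.15, adjusted p = 0.0038), rose as well. Of 16 keratinocyte and epithelial markers, 8 were tested, 3 rose and 1 fell, and Epcam, Cdh1 and Krt5 were below the test limit. The one that fell was Cdsn, corneodesmosin (log2 change -0.60, SE 0.09, adjusted p = 0.002). Against the same controls, the 24 h changes were -1.32 for Krt16, -1.46 for Serpinb5, -0.88 for Krt19, 3.10 for Sprr1a, a precursor of the cornified envelope, and -4.62 for Cdsn, all called. A presence of epithelial cells was not tested.

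Some changes lay outside the groups above. Rgs2, a brake on G-protein signalling, measured 8.14, 8.05 and 6.84 CPM in the controls and 27.6, 23.4 and 20.1 CPM at 72 h (log2 change 1.63, SE 0.14, adjusted p = 3.6e-05), and was called lower at 24 h against the same controls (-1.80). Il1rn, the receptor antagonist of interleukin 1, went from 17.1, 14.2 and 14.3 CPM to 4.62, 6.12 and 5.35 CPM (log2 change -1.50, SE 0.15, adjusted p = 1.1e-04), and was called higher at 24 h (1.08). The pattern recognition protein Ptx3 measured 102, 137 and 110.1 CPM and 74.9, 70.7 and 78 CPM (log2 change -0.64, SE 0.10, adjusted p = 0.002), and its 24 h change was -3.37. The difference between the times was not tested for these genes.

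Transcripts of mitochondrial DNA did not move as one. The ribosomal RNAs mt-Rnr1, with 222, 222 and 194 CPM in the controls and 419, 529 and 414 CPM at 72 h (log2 change 1.09, SE 0.11, adjusted p = 1.3e-04), and mt-Rnr2, with 1284, 932 and 973 CPM and 2122, 2291 and 1661 CPM (log2 change 0.93, SE 0.15, adjusted p = 0.0023), rose. Of 13 messenger RNAs, 2 fell: mt-Cytb, from 2442, 1942 and 2130.0 CPM to 1215, 1759.7 and 1707 CPM (log2 change -0.48, SE 0.13, adjusted p = 0.041), and mt-Nd6, the one encoded on the other strand (log2 change -0.35, SE 0.09, adjusted p = 0.03). Reads of mt-Nd6 and of the opposite strand cannot be told apart if the counting ignored strand. The call of mt-Cytb ended without controls 1 or 3, 24 h libraries 1, 2 or 3 or 72 h libraries 1 or 3 (log2 change -0.55 to -0.32, adjusted p = 0.061 to 0.11), and that of mt-Nd6 without control 1, 24 h library 2 or 72 h libraries 1 or 3 (log2 change -0.38 to -0.27, adjusted p = 0.059 to 0.11). The median log2 change of the messenger RNAs was -0.22. How ribosomal RNA was removed from the libraries is not given in the sources used here, and its part in the rRNA values was not tested.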
